A study of Homo sapiens with 6 samples.

Results

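The histone genes of TC-71, an established Ewing sarcoma cell line, were examined in 3 wildtype libraries and 3 libraries with XG knockout. The members were all protein-coding genes of the deposited count table whose symbols follow the systematic histone names (H1, H2A, H2B, H3 and H4, with cluster numbers or the variant letters X, Z, J and W). The rule uses names and gene types only, and it found 81 genes among 60662. Of these, 60 carry the C-numbered names of the clustered, replication-dependent core histones and 15 are variants by name. The other 6 are the linker histones H1-1 to H1-6 of the chromosome 6 cluster, kept as a class of their own. The variant class by name also holds H2AW, H3-4 and H4-16, which are usually counted with the replication-dependent kind.

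Both groups were TC-71 cells without treatment, grown in the same medium with serum, and they differed in the labelled genotype: wildtype, or knockout of XG, which encodes a cell-surface glycoprotein carrying the Xg blood group antigen. The comparison asks how transcript levels differ between the genotypes. How the knockout was made, whether its cells were clonal, and whether replicates were separate cultures are not given in the sources used here, so the tests cover the spread among libraries, which may be technical. Libraries were made from mRNA with a stranded kit.

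Histones wrap DNA into nucleosomes: H2A, H2B, H3 and H4 form the core and H1 binds the linker. Replication-dependent histone genes are expressed in S phase, and their mRNAs normally end not in a poly(A) tail but in a conserved stem-loop, which the stem-loop binding protein SLBP recognises for processing, translation and decay. Replacement variants such as H3.3 and H2A.Z are made throughout the cell cycle from polyadenylated mRNAs, the kind that an mRNA library is built to capture. Some replication-dependent genes also give polyadenylated transcripts that run past the stem-loop, and H2AX is known to give both forms.

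The stem-loop was looked for in the annotated transcripts, because it separates the kinds of histone mRNA. The motif searched was GGCNCTTNTNAGNGCC (16 letters, on the transcript strand) in GENCODE 29 transcripts of GRCh38, in which 79 of the 81 genes were found by identifier. It was present in 32 histone genes, after the stop codon in at least 1 transcript of each, and in 42 of 19922 protein-coding genes (0.211%) altogether. It was found in 28 of 58 replication-dependent core genes, in 0 of 6 clustered linker genes and in 4 of 15 variants, which were H2AX, H2AW, H3-4 and H4-16. Many models are short (the shortest merged exon length was 297 bases), and a model that ends with the coding sequence cannot show the motif. The following sites are those of H2AC6 and H2BC5, the most abundant core genes that hold the motif, of an H2B and an H4 gene whose annotated transcripts run far past it, and of the 2 tested variants that hold it. Capitals mark the motif, with 5 bases on either side.
H2AC6: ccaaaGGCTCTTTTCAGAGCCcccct
H2BC5: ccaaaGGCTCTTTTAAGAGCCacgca
H2BC21: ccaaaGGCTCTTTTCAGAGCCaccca
H4C8: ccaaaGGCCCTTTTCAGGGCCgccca
H2AX: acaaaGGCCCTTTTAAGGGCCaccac
H2AW: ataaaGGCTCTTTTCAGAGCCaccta

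The sites lie at chr6:26124664-26124689 (H2AC6, plus strand), chr6:26158582-26158607 (H2BC5, plus), chr1:149886183-149886208 (H2BC21, minus), chr6:26285126-26285151 (H4C8, minus), chr11:119094893-119094918 (H2AX, minus) and chr1:228457364-228457389 (H2AW, minus), each 3′ of the stop codon. The core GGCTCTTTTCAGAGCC was the most frequent, in 16 genes, and no H4 gene was among them. The H4 genes with a motif had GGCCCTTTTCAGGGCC or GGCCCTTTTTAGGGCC. The annotated transcript ran on beyond the core for 1128 bases in H2AC6, 39 in H2BC5, 1729 in H2BC21, 1655 in H4C8, 1044 in H2AX and 390 in H2AW. The poly(A) signal hexamer AATAAA stood within the last 40 bases of an annotated transcript in 28 members, and in 72.3% of protein-coding genes. Among the core genes, 20 had both the stem-loop and the hexamer near an annotated end. Each feature was scored per gene, so they may lie in different transcripts.

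Fragment counts of the core genes are given beside these annotated ends. The 20 core genes with both features had a median of 41 fragments over the 6 libraries together (range 0 to 1574), and 8 of them passed the filter on low counts. The 8 with the stem-loop only had a median of 29.5 (range 0 to 299), and 2 passed. The 1 with the hexamer only had 328 and passed. The 29 with neither had a median of 5 (range 0 to 4217), and 3 passed. A count covers only the annotated exons, so the length of the model enters these numbers too, and its part was not tested.

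Almost all histone fragments in these libraries came from a few variants. Normalised fragment counts (CPM, on TMM-adjusted library sizes) summed over all 81 genes came to 2199 ± 15.5 in wildtype (SD, n = 3), of which the 15 variants made up 96.9%, the 60 core genes 2.67% and the 6 clustered linker genes 0.394%. At least 1000 fragments in every library were counted for 7 variants, led by H2AZ1 and H3-3B, and no core or clustered linker gene did. The 25 genes that passed the filter were 14 core, 2 clustered linker and 9 variant genes. Replication-dependent mRNAs that end in the stem-loop without a poly(A) tail may be missed by an mRNA library. The shares above therefore describe these libraries, not all histone mRNA of the cells, and the part missed was not tested.

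**Figure D1:**
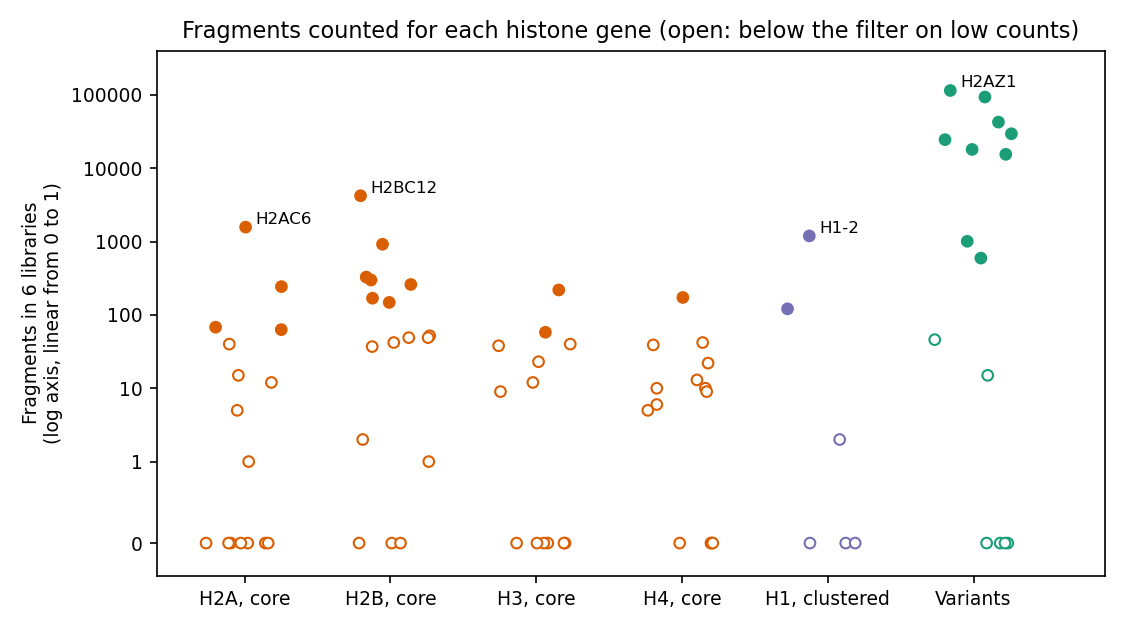
Each point is 1 histone gene, placed by the fragments counted in the 6 libraries together (log axis, linear from 0 to 1), in columns by protein and class. Filled points passed the filter on low counts. Variants reach 114849 fragments (H2AZ1), the highest core gene, H2BC12, has 4217 and the highest clustered linker gene, H1-2, has 1194.

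The other 56 genes were too low to test. No fragment was counted in any library for 27 of them, namely H1-1, H1-5, H1-6, H1-7, H1-8, H2AC1, H2AC7, H2AC8, H2AC14, H2AC16, H2AC17, H2AC19, H2BC1, H2BC3, H2BC10, H3-2, H3-4, H3C3, H3C4, H3C8, H3C11, H3C14, H3C15, H4C6, H4C7, H4C13 and H4C15. At most 9 fragments in any library were counted for 20, namely H1-3, H2AC4, H2AC15, H2AC18, H2AC21, H2BC8, H2BC14, H3-5, H3C2, H3C6, H3C7, H3C13, H4C1, H4C2, H4C3, H4C4, H4C9, H4C11, H4C12 and H4C14. The remaining 9 reached 10 to 13 fragments in at least 1 library, and they were H2AC12, H2BC7, H2BC9, H2BC13, H2BC17, H2BC18, H3C1, H4-16 and H4C5. In a library, 0 fragments allow a level of up to 0.0949 to 0.133 CPM (3 fragments, depending on depth, for counting error only). This bound does not cover genes whose fragments may go uncounted because their sequence is shared.

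Sequence shared between histone genes limits these zeros in part. The counting command set no option for reads that map to several places, so such reads may have gone uncounted. The levels of near-identical genes are therefore uncertain and may be too low. Of 20 core genes at 0, 19 had reference transcripts, and 8 of these shared over 80% of their 50-base windows with another gene, among them the duplicated H3C14 and H3C15 (100% each). The other 11 shared under 10% of their windows and were at 0 as well, among them H2BC1, H2BC3, H3C8, H4C6 and H4C13. Not all sharing is between separate copies. The annotated span of H2AC17 (chr6:27892757-27893149, minus) overlaps that of H3C12 (chr6:27890382-27893106, minus), with which it shares most. H2AC7 and H3C4 share most with AL031777.3. What overlap does to these counts was not tested. By protein, 4 of 16 H2A, 7 of 17 H2B, 2 of 13 H3 and 1 of 14 H4 core genes passed the filter. H2B genes supplied 41.3 ± 1.15 of the 58.7 ± 0.435 CPM of core histones in wildtype (SD, n = 3).

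No histone gene passed the test of knockout against wildtype. Of the 25 tested members, 0 rose and 0 fell at an edgeR adjusted p of 0.05, where 196 of 14425 tested genes (1.36%) passed, 0.444% higher and 0.915% lower. Limma voom gave 0 of 25. DESeq2 gave 0 of the 12 members for which it set an adjusted p, and in the authors' deposited table there were 0 of the 8 with an adjusted p. The other 13 and 17 members, H2AJ among those of the authors' deposited table, could not be called there. Without the filter on low counts edgeR called 3 histone genes (H2AX and H2AJ among them) and 647 genes in all. After GC correction it called 2 (H2AJ among them) and 339 in all. Without knockout replicate 3 it called 4 (H2AX, H1-10 and H2AJ among them) and 1851 in all. At an unadjusted p under 0.05, 5 of the 25 passed (H2AJ, H2AX, H2BC15 and H2AW among them), against 16.8% of all tested genes. The groups did not overlap in 6 of the 25, against 20.5% of all tested genes. Of these, 5 were lower in knockout (H3-3A, H2AJ, H2BC5, H2BC15 and H1-2), against 9.8%, and 1 was higher, against 10.7%. A negative log2 difference, knockout minus wildtype, was seen in 15 of 25 and in 49.1% of all tested genes. Medians were 0.029 for 14 core genes, -0.29 for 2 clustered linker genes and -0.052 for 9 variants, beside 0.0019 for all tested genes. The clustered linker median was -0.11 without wildtype replicate 2.

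**Figure D2:**
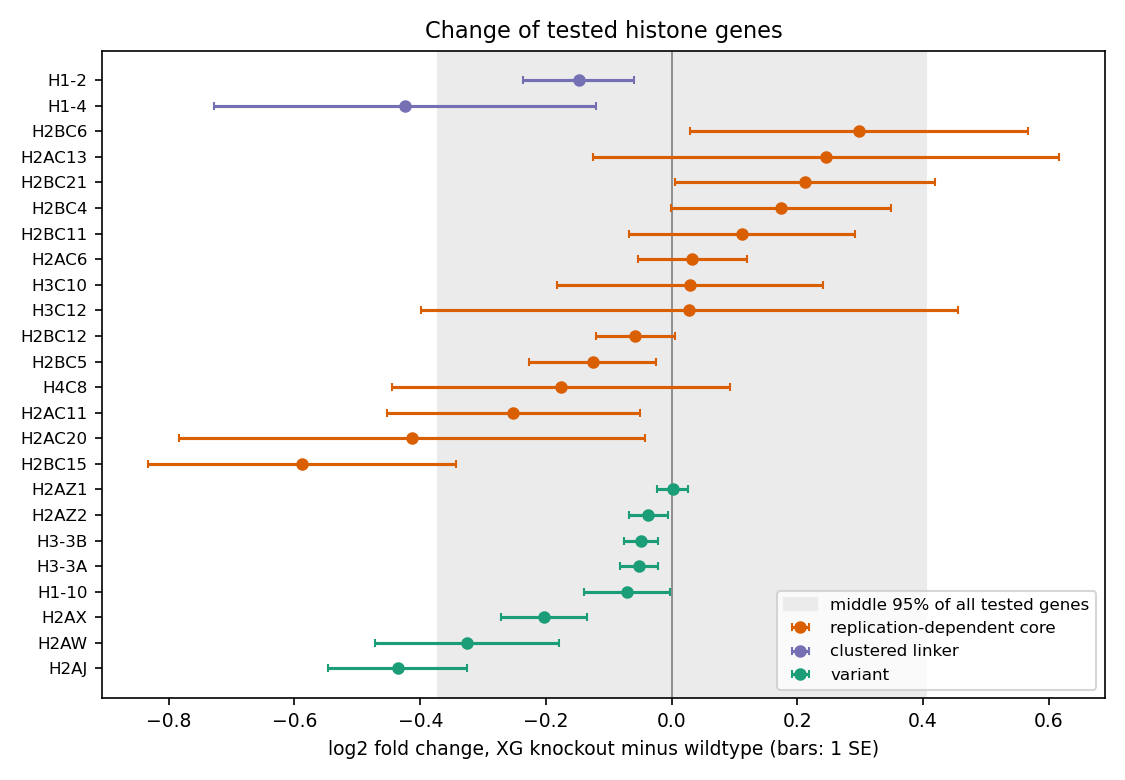
Points give the log2 fold change of the tested histone genes other than 1 not reported here, knockout minus wildtype, with bars of 1 SE, and the grey band holds the middle 95% of all tested genes (-0.37 to 0.41). H2BC15, H2AJ, H1-4 and H2AC20 lie beyond its lower end.

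Summed over the 60 core genes, the libraries had 58.7, 59.2 and 58.3 CPM in wildtype and 55.8, 55.3 and 59.1 CPM in knockout. Knockout replicates 1 and 2 were lowest and knockout replicate 3 lay within the wildtype range, and the knockout mean was 96.6% of wildtype. The 15 variants summed to 2144, 2138 and 2115 CPM in wildtype and 2085, 2046 and 2112 CPM in knockout (97.6% of wildtype). The knockout range overlapped the wildtype range for the core sum and ended just below it for the variant sum. After GC correction the core sum was 98.9% and the variant sum 98.4% of wildtype. In bulk libraries fewer cells of a type and less RNA per cell cannot be told apart. The core sum covers only mRNAs that the libraries captured, so a change in those without a poly(A) tail could go unseen.

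H2BC12 was the most abundant core gene. This H2B gene (ENSG00000197903, chromosome 6) had 26.9, 27.3 and 25.6 CPM in wildtype replicates 1 to 3 and 24.5, 24.1 and 28.1 CPM in knockout replicates 1 to 3. Knockout replicate 3 was the highest of the 6 libraries and the other knockout libraries the lowest, so the groups overlapped (log2 difference -0.058 ± 0.0628 SE, edgeR adjusted p = 0.702). With knockout replicate 3 as the only knockout library the sign turned (0.078). The annotated model of 381 bases shares 74.1% of its 50-base windows with other genes, most with H2BFS, so the level is uncertain.

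H2BC12 stands head to head with H2AC12, with 331 bases between the annotated starts, and the partner had 40 fragments in all against 4217. The 180 bases upstream of the H2BC12 start are shown because they lie between the genes of the pair with the largest difference in fragment number (RefSeq, GRCh38.p14, chr6:27146859-27147038, minus strand, 5′ to 3′). Capitals mark CCAAT, the octamer ATTTGCAT and TATAAA on either strand.
H2BC12: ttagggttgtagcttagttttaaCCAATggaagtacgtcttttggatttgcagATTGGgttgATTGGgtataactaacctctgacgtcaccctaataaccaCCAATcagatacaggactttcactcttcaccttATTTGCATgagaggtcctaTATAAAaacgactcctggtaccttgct

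CCAAT was present within 250 bases upstream, on either strand, in 17 of 17 H2B, 15 of 15 H2A and 11 of 11 H3 core genes with a RefSeq promoter, in 3 of 12 H4 genes, and in 32.0% of the 35116 promoters of the table. The octamer was present in 14 of the H2B and 11 of the H2A genes, in 1 H3 gene, in 0 H4 genes and in 1.63% of all promoters. TATAAA was present in 12 H2B, 12 H2A, 8 H3 and 6 H4 genes, and in 10.7% of all. These matches describe the windows only.

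Fragment counts within head-to-head pairs were unequal. Of 10 H2A and H2B pairs with starts under 1000 bases apart, the H2B gene had more fragments in 7 and the H2A gene in 2. Of the 7, H2BC8 and H2BC14 had 1 and 2 fragments in all, against 0. The H2A partners H2AC7, H2AC14 and H2AC17, at 0, shared 98.0%, 83.7% and 86.3% of their 50-base windows with other genes, so their zeros are uncertain. The pairs led by the H2A gene in fragments were H2AC6 with 1574 against 299 for H2BC4, and H2AC13 with 63 against 52 for H2BC13. Model length enters these counts too, so the tally depends on the annotation. Per kilobase in wildtype, H2AC20 had 1.22 ± 0.46 CPM and H2BC21 0.685 ± 0.152 (SD, n = 3), against 68 and 260 fragments. On that scale H2AC13 (0.695) and H2BC13 (0.713) were nearly equal. H2AC6 (5.77) stayed above H2BC4 (2.07), and H2BC12 (69.8) above H2AC12 (0.596). H2AC1 and H2BC1, which are known from testis, were both at 0. H2BC11 and H2AC11 had 328 and 243 fragments, and 2.04 and 0.731 CPM per kilobase in wildtype.

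**Figure D3:**
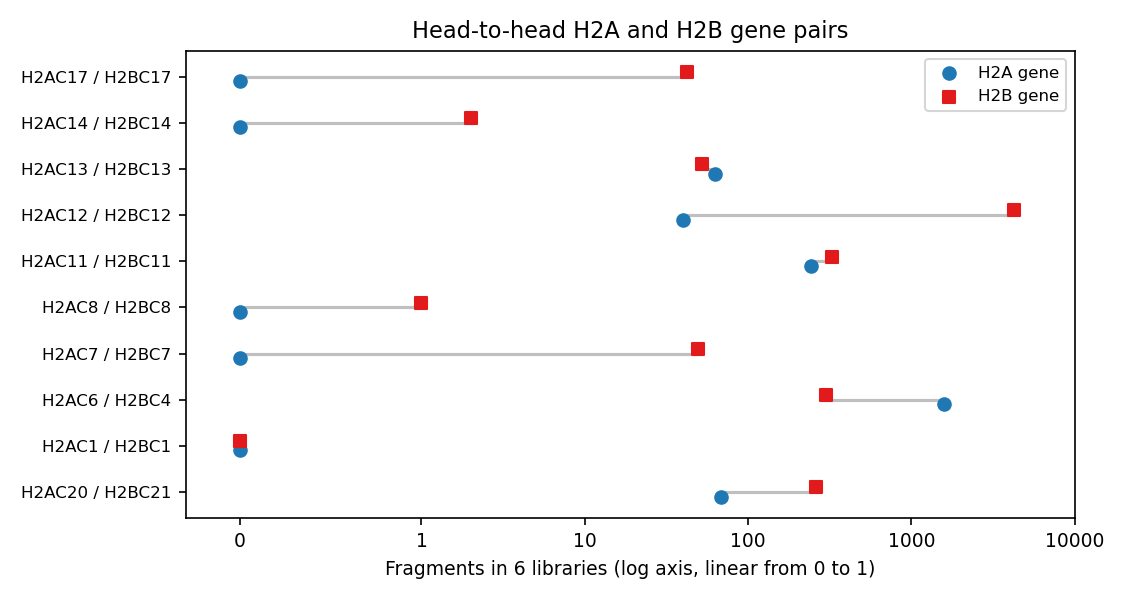
For each of the 10 head-to-head pairs, the circle gives the fragments of the H2A gene and the square those of the H2B gene in the 6 libraries together (log axis, linear from 0 to 1). The largest difference in fragment number is that of H2AC12 (40) and H2BC12 (4217).

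H2AC6, the second core gene by level, encodes an H2A and had 9.95, 9.02 and 9.92 CPM in wildtype and 10.5, 10.1 and 8.98 CPM in knockout libraries. The groups overlapped, with knockout replicate 3 the lowest of all (log2 difference 0.033 ± 0.087 SE, edgeR adjusted p = 0.888). H2BC5, an H2B gene, had 5.83, 6.06 and 5.96 CPM in wildtype and 5.3, 5.28 and 5.77 CPM in knockout libraries. Every knockout library lay below wildtype by a margin that did not pass the test (log2 difference -0.13 ± 0.102 SE, edgeR adjusted p = 0.581).

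Near 2 CPM, the H2B gene H2BC11 had 2.17, 1.65 and 2.0 CPM in wildtype and 1.77, 2.28 and 2.21 in knockout libraries (log2 difference 0.11 ± 0.179 SE, edgeR adjusted p = 0.804). H2BC4, another H2B gene, had 1.77, 1.84 and 1.56 CPM against 1.97, 2.06 and 1.83 (log2 difference 0.17 ± 0.175 SE, edgeR adjusted p = 0.677). In both the groups overlapped. H2AC11, an H2A gene, had 1.66, 1.54 and 1.74 CPM in wildtype and 1.37, 1.61 and 1.14 in knockout libraries, again with overlap (log2 difference -0.25 ± 0.201 SE, edgeR adjusted p = 0.574).

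H2BC15, which encodes an H2B, had the smallest p of the core genes. It stood at 1.19, 1.46 and 1.16 CPM in wildtype and 1.08, 0.696 and 0.794 CPM in knockout libraries, with a mean of 28.2 fragments a library. Every knockout library lay below every wildtype library, and the difference did not pass over all genes (log2 difference -0.59 ± 0.246 SE, edgeR adjusted p = 0.233). The other tested core genes had log2 differences of 0.30 (H2BC6), 0.25 (H2AC13), 0.21 (H2BC21), 0.030 (H3C10), 0.028 (H3C12), -0.18 (H4C8) and -0.41 (H2AC20), with SEs of 0.207 to 0.427. These 7 had at most 50 fragments in any library, and the H2BC21 value was 0.028 without wildtype replicate 1.

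The clustered linker class had 2 tested genes. H1-2, encoding a somatic H1, had 7.74, 7.83 and 7.79 CPM in wildtype and 6.91, 7.18 and 6.97 CPM in knockout libraries. The groups did not overlap, and the lower knockout level did not pass the test (log2 difference -0.15 ± 0.0885 SE, edgeR adjusted p = 0.429). H1-4, another somatic H1, had 0.724, 1.23 and 0.623 CPM in wildtype and 0.603, 0.569 and 0.76 CPM in knockout libraries, with overlap (log2 difference -0.42 ± 0.304 SE, edgeR adjusted p = 0.521). Without wildtype replicate 2, its highest library, the H1-4 difference was -0.074.

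H2AZ1, which encodes an H2A.Z protein placed at promoters, was the most abundant histone gene in these libraries by CPM and per kilobase. It had 719, 703 and 708 CPM in wildtype and 724, 706 and 704 CPM in knockout libraries, and its wildtype mean lay above that of 98.9% of tested genes. The groups overlapped throughout (log2 difference 0.0019 ± 0.0248 SE, edgeR adjusted p = 0.981). The paralog H2AZ2 had 190.3, 183 and 182 CPM against 185, 181 and 176, with knockout replicate 1 inside the wildtype range and the others just below it (log2 difference -0.037 ± 0.0313 SE, edgeR adjusted p = 0.60). Per kilobase of annotated exon, H2AZ1 made up 88.9% ± 0.144 of the pair in wildtype and 89.2% ± 0.148 with the knockout (SD, n = 3). On CPM alone these shares were 79.3% ± 0.24 and 79.8% ± 0.248, so the share depends on the lengths used. The merged exons of H2AZ1 form 1 block of 2270 bases, although a reference transcript has 5 exons.

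H3.3, the replacement H3, is encoded by H3-3A and H3-3B, whose proteins are the same. H3-3B had 579, 597 and 594 CPM in wildtype and 587, 561 and 563 CPM in knockout libraries, where knockout replicate 1 lay within the wildtype range (log2 difference -0.049 ± 0.0269 SE, edgeR adjusted p = 0.378). H3-3A had 265, 275 and 265 CPM against 264, 250.2 and 263, every knockout library lying below wildtype by a narrow margin (log2 difference -0.052 ± 0.0302 SE, edgeR adjusted p = 0.417). H3-3B made up 64.3% ± 0.378 of the pair per kilobase in wildtype and 64.3% ± 0.582 with the knockout (SD, n = 3). On CPM alone these shares were 68.7% ± 0.354 and 68.8% ± 0.545. H3-3A shares 11.7% of its 50-base windows with other genes, most with the pseudogene H3F3AP4. After GC correction the H3-3A difference was -0.087 (edgeR adjusted p = 0.0786) and that of H2AZ2 -0.065 (edgeR adjusted p = 0.198).

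H2AX, the H2A phosphorylated at DNA breaks, split the knockout libraries. It had 168, 164 and 156 CPM in wildtype and 123, 134 and 166 CPM in knockout replicates 1, 2 and 3. Knockout replicates 1 and 2 lay below all wildtype libraries and knockout replicate 3 lay within them (log2 difference -0.20 ± 0.0686 SE, edgeR adjusted p = 0.141). Without knockout replicate 3 the H2AX difference was -0.34 (edgeR adjusted p = 1.79e-09), and with that library as the only knockout library it was 0.027 (edgeR adjusted p = 0.855, the spread then coming from the wildtype libraries alone).

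H2AX has a GC content of 66.4%. The most GC-rich 10% of tested genes (61.4% and over) had median log2 deviations from the wildtype mean of -0.21, -0.15 and 0.027 in knockout replicates 1, 2 and 3. After a GC correction the H2AX difference was -0.079 ± 0.0307 SE (edgeR adjusted p = 0.185).

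H1-10, a replacement linker histone with a GC content of 68.6%, had the same order of knockout libraries. It stood at 104, 98.2 and 91.3 CPM in wildtype and 81.7, 90.2 and 107 CPM in knockout replicates 1, 2 and 3, so that the lowest and the highest library were both knockout (log2 difference -0.072 ± 0.0683 SE, edgeR adjusted p = 0.656). Without knockout replicate 3 the H1-10 difference was -0.19 (edgeR adjusted p = 0.00127), with it alone 0.13 (0.105), and after GC correction 0.070 (0.312).

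H2AJ, an H2A variant known from senescent cells, had the smallest p of all histone genes. It had 7.56, 7.37 and 6.72 CPM in wildtype and 5.14, 4.78 and 6.15 CPM in knockout libraries. Every knockout library lay below every wildtype library, and the adjusted p stood above the threshold of 0.05 (log2 difference -0.44 ± 0.111 SE, edgeR adjusted p = 0.0586). After GC correction the H2AJ difference was -0.46 (edgeR adjusted p = 0.013), and with knockout replicate 3 as the only knockout library it was -0.24 (edgeR adjusted p = 0.593). It was negative in 16 of 16 alternatives, with adjusted p between 0.00105 and 0.593. The GC content used for H2AJ, 42.6%, is that of its longest annotated transcript.

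H2AW, whose stem-loop is printed with the others, had 4.85, 3.45 and 4.0 CPM in wildtype and 2.93, 3.26 and 3.63 CPM in knockout libraries, with overlap (log2 difference -0.33 ± 0.146 SE, edgeR adjusted p = 0.268). Without wildtype replicate 1, its highest library, the H2AW difference was -0.18.

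**Figure D4:**
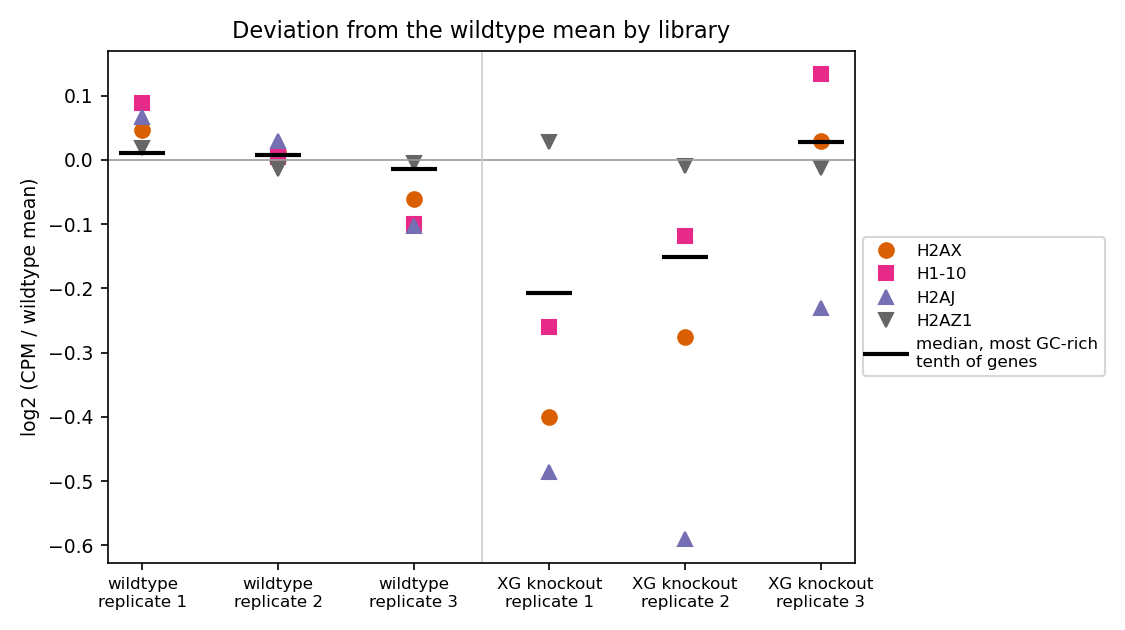
The vertical axis gives the log2 ratio of each library's CPM to the wildtype mean for H2AX, H1-10, H2AJ and H2AZ1, and black bars give the median deviation of the most GC-rich 10% of tested genes. In knockout replicates 1 and 2, H2AX and H1-10 lie below 0 with the bars, H2AJ lies below 0 in all 3 knockout libraries, and H2AZ1 stays near 0.

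Per kilobase of annotated exon, the wildtype order of the genes named here was led by H2AZ1 at 313 ± 3.57 CPM per kilobase (SD, n = 3). H2AX (101 ± 3.78) and H3-3B (96.2 ± 1.63) came next, with overlapping libraries. H2BC12 (69.8 ± 2.26) and H1-10 (64.5 ± 4.2) followed and overlapped too. H3-3A (53.5 ± 1.19), H2AZ2 (39.0 ± 0.955), H1-2 (12.1 ± 0.0674) and H2BC5 (6.83 ± 0.137) came after these, each below all libraries of the gene before it. H2AC6 and H2AW, at 5.77 and 4.58 CPM per kilobase, overlapped. A model that ends with the coding sequence changes the length by which a count is divided. Lengths merge all annotated exons, with 381 bases for H2BC12 and 6134 for H3-3B, so this order depends on the annotation. Core mRNAs without a poly(A) tail may also be missing from it.

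**Figure D5:**
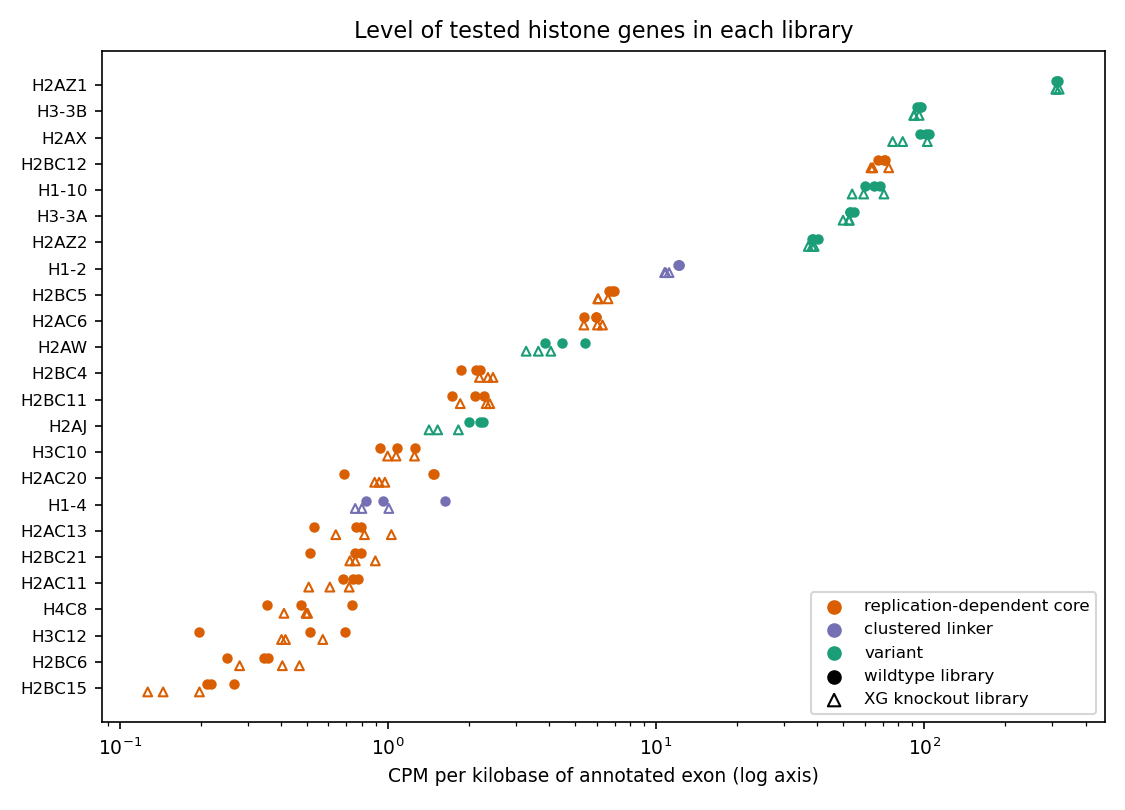
Each line is 1 tested histone gene, with 1 member not reported here left out, with circles for wildtype and triangles for XG knockout libraries, in CPM per kilobase of annotated exon on a log axis. H2AZ1 stands highest.

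Genes that make, process and place histones were taken from lists, to be read against all tested genes, of which 0.444% rose, 0.915% fell and 49.1% were negative. XG, the labelled target, stood at 45.4, 47.1 and 44.4 CPM in wildtype and 30.0, 30.0 and 28.9 CPM in knockout libraries (log2 difference -0.63 ± 0.0478 SE, edgeR adjusted p = 1.65e-06), so it was lower in each knockout library and still present. SLBP, the stem-loop binding protein, had 129 ± 1.84 CPM in wildtype and 123 ± 1.97 with the knockout (SD, n = 3) (log2 difference -0.074 ± 0.0317 SE, edgeR adjusted p = 0.248). NPAT, the coactivator of replication-dependent histone genes, had 44.8 ± 1.88 and 46.4 ± 1.88 CPM (log2 difference 0.051 ± 0.0481 SE, edgeR adjusted p = 0.647).

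Of 45 tested genes for histone mRNA processing, translation and decay, 1 fell and 0 rose, with 25 negative and a median of -0.0078. This was SNRPB, a core protein of spliceosomal and U7 small nuclear ribonucleoproteins, at 347 ± 8.85 and 310.1 ± 19.1 CPM (SD, n = 3) (log2 difference -0.16 ± 0.0364 SE, edgeR adjusted p = 0.0334). Of 45 histone chaperone and import genes, 1 fell and 0 rose, with 28 negative and a median of -0.014. RUVBL2, an ATPase of the H2A.Z-depositing complexes, was at 236 ± 5.67 and 203 ± 16.1 CPM (log2 difference -0.22 ± 0.0422 SE, edgeR adjusted p = 0.0149). Of 26 S phase genes, 2 fell and 0 rose, with 22 negative and a median of -0.051. They were TK1, a thymidine kinase (log2 difference -0.18 ± 0.0416 SE, edgeR adjusted p = 0.0394), and UNG, a uracil-DNA glycosylase (log2 difference -0.12 ± 0.0285 SE, edgeR adjusted p = 0.0398).

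SNRPB, RUVBL2, TK1 and UNG have GC contents of 57.8%, 60.1%, 62.8% and 50.7%. With knockout replicate 3 as the only knockout library, SNRPB, RUVBL2 and TK1 had log2 differences of -0.065, -0.097 and -0.069 and lost their calls, and UNG had -0.12 (edgeR adjusted p = 0.0465). After GC correction TK1 lost its call (-0.080, edgeR adjusted p = 0.138). All 4 lost it with the replicate number as a block and when any of the 5 libraries other than knockout replicate 3 was left out. UNG also lost it with upper quartile scaling (edgeR adjusted p = 0.0625), SNRPB and TK1 with at least 100 counts required in 3 libraries (0.0528 and 0.0613), and both with block and GC correction together (0.0665 and 0.275).

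Among 21 genes of histone gene transcription and its cell cycle activation, 0 passed, with 15 negative and a median of -0.020. The smallest p-values were those of E2F2, a cell cycle transcription factor (log2 difference -0.11, edgeR adjusted p = 0.11), and GAPDH, which also serves in a coactivator of H2B genes (-0.079, adjusted p = 0.117). Of the histone genes that the naming rule leaves out, 4 were tested and 0 passed, with 3 negative and a median of -0.039. MACROH2A2, a large H2A variant, had 265 ± 3.5 and 256 ± 9.84 CPM (log2 difference -0.048 ± 0.0309 SE, edgeR adjusted p = 0.468), and the H3 gene H3Y1 had a log2 difference of -0.64 (edgeR adjusted p = 0.562).

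Over the series, deposited counts summed to between 22557187 and 31214099 fragments per library, so that 1 fragment was worth 0.0316 to 0.0445 CPM. Chi-square values per gene between libraries were 1.43 to 1.66 within wildtype and 2.46 to 4.38 within knockout, and 2.06 to 2.27 between knockout replicate 3 and wildtype. Of 13 Ewing sarcoma markers all were tested, and CD99, a surface protein used in diagnosis, fell from 496 ± 7.76 to 458 ± 2.64 CPM (SD, n = 3). The 6 blood and 3 endothelial markers were too low to test, summing to at most 0.201 and 0.217 CPM in a library, with HBB, CD3E and VWF at 0 in all. Further, 3 of 6 fibroblast or bone markers were tested with 0 called, and of 4 epithelial markers 2 were tested and KRT18 rose, from 2.03 ± 0.0566 to 3.26 ± 0.231 CPM. The part of such cells in the histone levels was not tested.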

How the data were processed

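Per gene and library (6 in all), the authors' deposited counts give whole fragments; they were made with featureCounts 2.0.1 on exons of GENCODE 33 genes with paired-end, reverse-strand settings and no option for multi-mapping reads, per the file headers. STAR 2.7.6a and GRCh38 are named in the submitters' processing notes. The authors' deposited table gives log2 fold changes and p-values from DESeq2 1.38.3 in R 4.2.2, per the submitters' processing notes, with Wald scores and a mean normalized signal that were not used. Its direction is not stated; all 196 called genes had the same sign in it. The merged exon length is another deposited column, per the file headers.

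Members and lists were chosen with earlier results of these data known. Genes were kept by filterByExpr (minimum count 10, minimum total 15; 14425 genes), scaled by TMM and tested with edgeR 4.0.16 (quasi-likelihood, two-sided) in R 4.3.3, Benjamini-Hochberg adjusted over all tested genes at 0.05. CPM are counts on TMM-adjusted library sizes, and SEs come from the fold change and F statistic. The GC correction removed a lowess trend (span 0.5) per library on the GC content of the longest GENCODE 29 transcript (99.5% of tested genes). Named genes are all tested members but 1, which is not reported here by name and stays in the counts, with every library given for the 5 most abundant and the 3 of smallest p per class, and up to 4 called genes per list, or else 2 by smallest p. The fit was tested on simulated data. Alternatives used DESeq2 1.42.0 and limma 3.58.1 (voom), other scalings, filters, the replicate number as a block, GC correction and left-out libraries. Same-numbered libraries did not deviate together (correlations -0.0459, -0.0239 and -0.0512 for numbers 1, 2 and 3), so the numbers were not taken as pairs.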

Additional observations from a re-analysis of the deposited data

How the results depend on the processing

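Of the 81 histone genes, 0 were called with the other scalings, limma voom, DESeq2 (12 of the 25 tested had an adjusted p), the stricter filter (3 libraries with 100 counts or more), the replicate block, an adjusted p of 0.01 and in 5 of the 6 fits without 1 library. No filter on low counts gave 3 (H2AX and H2AJ among them), GC correction 2 (H2AJ among them), the replicate block with GC correction 2, and knockout replicate 3 alone 1. Leaving out 1 library gave 0 to 4, the 4 being without knockout replicate 3 (H2AX, H1-10 and H2AJ among them).

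Over all genes, 196 were called, 647 without a filter, 339 with GC correction, 125 with knockout replicate 3 alone, 33 at an adjusted p of 0.01, and 18 to 1851 with 1 library left out, the highest without knockout replicate 3. The replicate numbers share no label beyond the number, and with them as a block 37 genes were called. The core median was -0.058 with the stricter filter, which tests fewer members, and ranged from -0.056 to 0.075 with 1 library left out. Leaving out 1 library moved the log2 difference of 19 of 25 tested histone genes by over 1.5 times or across 0. With knockout replicate 3 alone the core and variant sums were 100.7% and 99.1% of wildtype.

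Some log2 differences changed sign. With GC correction, alone and with the replicate block, H2BC12 was 0.027 and 0.028 and H1-10 0.070 and 0.073. With knockout replicate 3 alone the values were 0.078 (H2BC12), -0.10 (H2AC6), -0.19 (H3C12), -0.012 (H2AZ1), 0.027 (H2AX), 0.13 (H1-10), -0.016 (NPAT) and 0.0042 (MACROH2A2). With 1 library left out, values ranged from -0.013 to 0.096 (H2AC6), -0.072 to 0.13 (H3C10), -0.40 to 0.18 (H4C8), -0.34 to 0.37 (H3C12), -0.011 to 0.011 (H2AZ1) and -0.19 to 0.0097 (H1-10). The cause was not tested. H3C10, H3C12 and H4C8 had under 50 counts in every library, which limits their precision.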
